A study of Mus musculus with 8 samples.

Results

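Polyamines (putrescine, spermidine and spermine) are small positively charged molecules that bind nucleic acids and that dividing cells need. Ornithine decarboxylase (Odc1) makes putrescine from ornithine, Amd1 supplies the aminopropyl donor from S-adenosylmethionine, Srm makes spermidine and Sms makes spermine. The antizymes Oaz1 and Oaz2 bind the Odc1 protein and send it to the proteasome, and the antizyme inhibitor Azin1 takes antizyme away from it. Sat1 acetylates spermidine and spermine for export or breakdown, and Smox oxidises spermine to spermidine with release of hydrogen peroxide. In human cells SAT1 is also a p53 target whose induction was tied to ferroptosis, an iron-dependent death by lipid peroxidation. These 9 genes were taken by name from the gene names in the deposited tables. All 9 were found among 24677 listed genes, and all 9 were among the 14513 genes that passed the filter on low counts.

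The RNA came from 4T1, a mouse line of triple-negative breast cancer, and was sequenced as 8 libraries, 2 in each of 4 groups. The groups were parental cells that overexpress Tyro3 (Tyro3 OE), anti-PD1 resistant cells with Tyro3 knocked out (Tyro3 KO), anti-PD1 resistant cells with the control genotype (resistant), and parental cells with the control genotype (parental). All cells were grown in the same serum-containing medium with no treatment. The labels used here do not give how Tyro3 was expressed or removed, whether a line was a single clone, or whether same-group libraries were grown separately. P-values therefore measure the spread between these libraries, and that spread may be technical.

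Counted reads per library ranged from 18001482 to 27261282. Tyro3, a receptor tyrosine kinase, stood at 107.0 and 102.9 CPM (reads of a gene per 1000000 counted reads, on scaled library sizes) in Tyro3 OE libraries and at 3.81 and 3.99 CPM in Tyro3 KO libraries, against 20.7 and 21.2 CPM in resistant and 25.7 and 24.4 CPM in parental libraries, so both engineered groups moved as labelled. Resistant libraries had less Tyro3 than parental libraries (-0.25 on the log2 scale, SE 0.08, adjusted p = 0.00586). The authors' own values for this change were -0.27 and adjusted p = 0.119, so the call depended on the analysis. Of the 7 epithelial markers examined, Krt8 and Krt18 were abundant (217 to 540.2 and 257 to 441.6 CPM over the libraries), while Epcam (0.133 to 1.32 CPM) and Cdh1 (0.252 to 4.01 CPM) were close to 0. The epithelial markers summed to 828 and 825 CPM in Tyro3 OE, 779 and 793 CPM in Tyro3 KO, 522 and 487 CPM in resistant, and 912 and 892 CPM in parental libraries, and Krt8 decreased by 1.25 on the log2 scale in resistant against parental cells (adjusted p = 7.20e-29). The 6 leukocyte and 4 endothelial markers summed to at most 0.757 and 1.01 CPM, with the endothelial Kdr at 0 reads. The 6 fibroblast markers, mostly Pdgfra and with Lum at 0 reads, summed to 209 and 202 CPM in Tyro3 OE, 104 and 105 CPM in Tyro3 KO, 191 and 176 CPM in resistant, and 98.1 and 97.3 CPM in parental libraries. Ribosomal protein genes took 7.77% and 8.08% of reads in resistant libraries, against 4.37% to 5.33% in the others, and mitochondrial genes took 3.24% and 2.98%, against 1.99% to 2.42%. The part of these differences in the values below was not tested. In bulk RNA, fewer cells of a kind and less RNA per cell cannot be told apart.

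The sequences that carry the known control of antizyme are shown first, since the antizymes are read from 2 overlapping frames. Ribosomes reach the full protein only by shifting frame at the stop codon of the first frame, and polyamines promote that shift. The 30 bases around this site in GENCODE release 21 of the mouse transcripts are given 5′ to 3′, with the stop codon in capitals.
Oaz1 (chromosome 10): cctcggtggtgctccTGAtgtccctcaccc
Oaz2 (chromosome 9): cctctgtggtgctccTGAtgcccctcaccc
The sites were identical at 28 of 30 bases. The RNA of these genes therefore says how much message there was and nothing of how often the frame was shifted.

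Promoters from RefSeq (GRCm38.p6, 250 bases before to 50 after the RefSeq start) were matched for 7 of the 9 genes, with 2 starts for Sms. RefSeq starts can differ from the gene positions printed below. The Odc1 window held the printed start (17544794). The Smox window lay wholly after the printed start (131491496), and the Oaz2 window, from 65676298, also began after the printed start (65668001). Azin1 and Srm had no entry. The promoters of Odc1, which changed most, and of Smox, which moved the other way, are printed on their plus strand. Capitals mark GC boxes (GGGCGG on either strand) in Odc1 and the core of the antioxidant response element (TGACNNNGC on either strand) in Smox.
Odc1, chr12:17544623-17544922: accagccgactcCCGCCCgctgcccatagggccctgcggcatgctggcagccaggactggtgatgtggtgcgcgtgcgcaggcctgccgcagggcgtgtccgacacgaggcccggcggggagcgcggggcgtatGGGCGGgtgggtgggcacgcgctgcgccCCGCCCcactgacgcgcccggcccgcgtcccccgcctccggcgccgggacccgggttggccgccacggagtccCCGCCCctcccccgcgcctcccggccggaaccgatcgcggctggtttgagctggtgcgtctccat
Smox, chr2:131491612-131491911: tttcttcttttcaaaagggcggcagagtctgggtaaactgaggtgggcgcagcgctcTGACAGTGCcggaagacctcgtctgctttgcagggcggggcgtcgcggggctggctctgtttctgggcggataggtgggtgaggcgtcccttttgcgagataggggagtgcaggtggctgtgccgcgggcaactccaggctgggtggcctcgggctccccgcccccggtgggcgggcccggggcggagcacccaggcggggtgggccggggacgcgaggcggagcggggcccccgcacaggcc
The Odc1 window held 4 GC boxes and the Smox window held 6, and 35.7% of all 32851 promoters searched held at least 1. None of the matches in a window overlapped. The antioxidant core was found in the Smox and Oaz1 windows, 1 match each, and in 12.4% of all promoters. The E-box CACGTG, the core that Myc with Max binds, was found in 1 of the Sms windows, in no other window of these genes, and in 7.15% of all promoters. A match is a description of the letters and not a bound site, and no sequence outside these windows was searched for the motifs.

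Odc1 (ENSMUSG00000011179, chromosome 12, 17544794 to 17551505 in GRCm38) encodes the rate-limiting enzyme of the pathway. It had 637 and 645 CPM in Tyro3 OE libraries, 2271 and 2348 CPM in Tyro3 KO libraries, 348 and 334 CPM in resistant libraries, and 3719 and 3617 CPM in parental libraries. The 4 groups did not overlap, and the order from high to low was parental, Tyro3 KO, Tyro3 OE and resistant. That differed from the order of Tyro3 itself, which was Tyro3 OE, parental, resistant and Tyro3 KO. By mean CPM Odc1 ranked 136 among all genes in Tyro3 OE cells, 21 in Tyro3 KO cells, 371 in resistant cells and 13 in parental cells.

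Relative to parental cells Odc1 fell by 2.52 on the log2 scale in Tyro3 OE cells (SE 0.04, adjusted p = 6.67e-39) and by 3.43 in resistant cells (SE 0.05, adjusted p = 2.09e-43), where it stood at 0.093 of the parental level. Here and below, each change is on the log2 scale, SE is its standard error, and adjusted p-values come from a quasi-likelihood test in edgeR, adjusted by Benjamini-Hochberg over all genes tested. Relative to resistant cells it rose by 2.76 in Tyro3 KO cells (SE 0.04, adjusted p = 1.29e-40), which is 6.77-fold. In the 3 comparisons it ranked 448, 351 and 608 of 14513 genes by the size of the fold change, in the order Tyro3 OE against parental, resistant against parental, and Tyro3 KO against resistant. In resistant against parental cells its mean dropped by 3326 CPM, the largest drop of any gene in that comparison. In Tyro3 OE against parental cells its mean dropped by 3027 CPM, which ranked 2 among the drops.

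All neighbours in the order of Odc1 levels differed. The change was -0.67 in Tyro3 KO against parental (SE 0.04, adjusted p = 1.07e-17), -1.85 in Tyro3 OE against Tyro3 KO (SE 0.04, adjusted p = 3.24e-34), and -0.91 in resistant against Tyro3 OE cells (SE 0.04, adjusted p = 1.30e-22). The comparisons with parental cells share their libraries, so these values are set side by side and are not independent of each other.

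Odc1 has many processed copies in the mouse genome, and 42.2% of the 50-base windows of its main transcript also occurred in other genes of GENCODE release 21. The most read of these other genes, the processed pseudogene Gm7993 (chromosome 5, 95974240 to 95975623), had 168 and 172 CPM in Tyro3 OE libraries, 631 and 599 CPM in Tyro3 KO libraries, 97.1 and 92.5 CPM in resistant libraries, and 978 and 1016 CPM in parental libraries. That is 25.5% to 28.1% of the Odc1 reads in each library, and the log2 fold changes of Gm7993 (-2.55, 2.70 and -3.39 in Tyro3 OE against parental, Tyro3 KO against resistant and resistant against parental) were close to those of Odc1. Whether its reads came from Odc1 messages cannot be told apart from these tables. With all such genes added to Odc1, the differences in log2 CPM were -2.53, 2.74 and -3.42 in the same order.

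**Figure D1:**
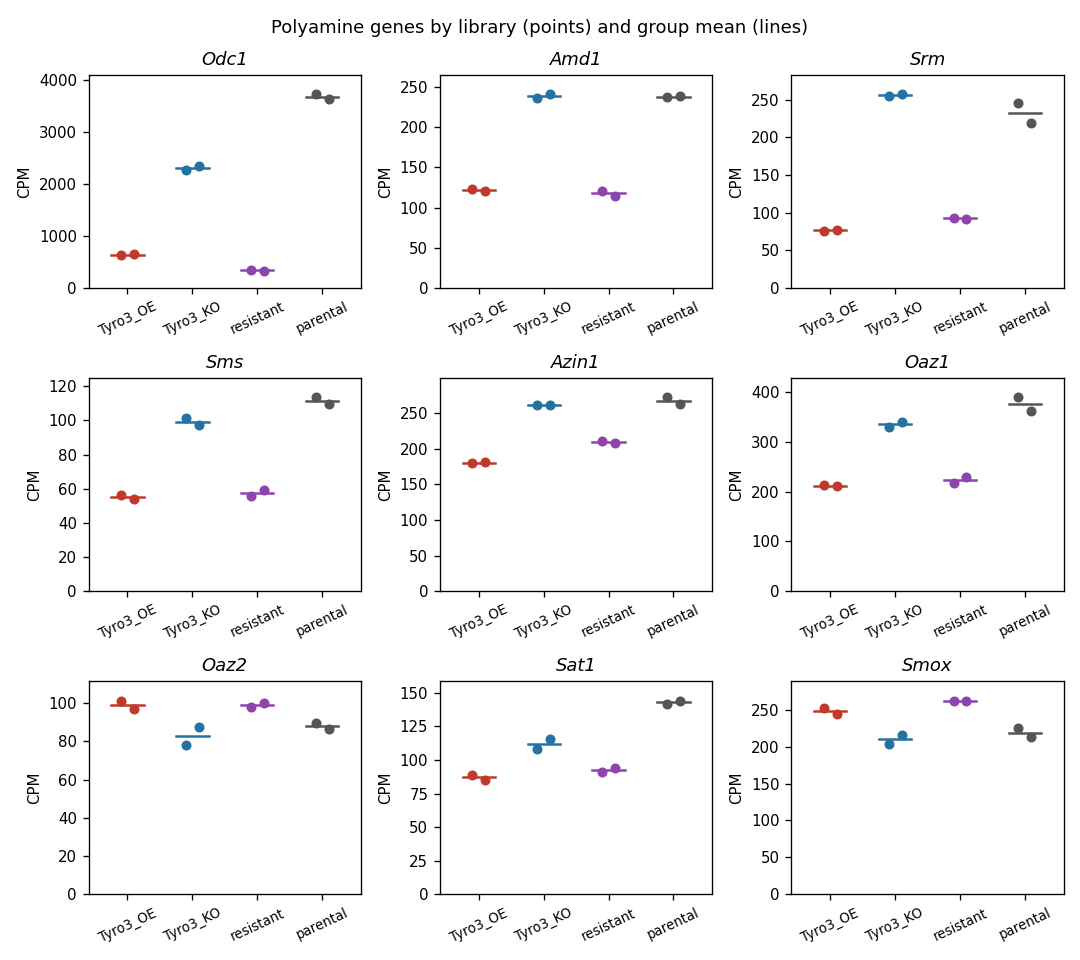
CPM (vertical axes, from 0) of the 9 genes in each library (points), with the group mean as a line, by group (horizontal axes). Odc1 runs from 334 CPM in a resistant library to 3719 CPM in a parental one, and Oaz2 and Smox, unlike the other 7 genes, are higher in Tyro3 OE and resistant than in Tyro3 KO and parental libraries.

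The other synthesis enzymes had the same high groups, Tyro3 KO and parental, and the same low groups, Tyro3 OE and resistant, as Odc1. Srm (ENSMUSG00000006442, chromosome 4, 148591503 to 148594993), spermidine synthase, had 76.1 and 77.2 CPM in Tyro3 OE libraries, 255 and 257 CPM in Tyro3 KO libraries, 92.9 and 92.2 CPM in resistant libraries, and 246 and 219 CPM in parental libraries. The Tyro3 KO and parental libraries stood far above the other 4, and Tyro3 OE was the lowest group. Srm changed by -1.60 in Tyro3 OE against parental (SE 0.05, adjusted p = 4.48e-30), by 1.47 in Tyro3 KO against resistant (SE 0.05, adjusted p = 1.19e-29) and by -1.33 in resistant against parental (SE 0.05, adjusted p = 1.01e-27).

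The order of Srm thus differed from that of Odc1 at the low end. Resistant cells had more Srm than Tyro3 OE cells (0.27, SE 0.05, adjusted p = 1.13e-05) and less Odc1. At the high end Tyro3 KO was above parental by 0.14 (SE 0.04, adjusted p = 0.00823), a call that was lost without parental replicate 2 (0.061, adjusted p = 0.41), without Tyro3 KO replicate 2 (adjusted p = 0.0598) and with no filter on low counts (adjusted p = 0.104).

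Amd1 (ENSMUSG00000075232, chromosome 10, 40287458 to 40302186), S-adenosylmethionine decarboxylase, had 123 and 120.3 CPM in Tyro3 OE libraries, 237 and 241 CPM in Tyro3 KO libraries, 121 and 115 CPM in resistant libraries, and 237 and 239 CPM in parental libraries. The libraries fell at 2 levels with no overlap between them. Amd1 changed by -0.97 in Tyro3 OE against parental (SE 0.04, adjusted p = 5.62e-24), 1.02 in Tyro3 KO against resistant (SE 0.04, adjusted p = 3.39e-25) and -1.01 in resistant against parental (SE 0.04, adjusted p = 6.71e-25).

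Within each level the Amd1 groups did not differ beyond their spread. The difference of Tyro3 KO from parental was 0.007 (95% interval -0.076 to 0.089) and that of resistant from Tyro3 OE was -0.048 (95% interval -0.14 to 0.040). Amd1 is uncertain in that 87.6% of its 50-base windows also occur in other genes, above all its near-identical copy Amd2. Genes sharing windows with it held reads equal to 5.46% to 7.06% of those of Amd1, and adding them gave -0.97, 1.01 and -1.01 in the 3 comparisons.

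Sms (ENSMUSG00000071708, chromosome X, 157443855 to 157492287), spermine synthase, had 56.5 and 54.0 CPM in Tyro3 OE libraries, 101 and 97.4 CPM in Tyro3 KO libraries, 55.8 and 59.5 CPM in resistant libraries, and 114 and 109.6 CPM in parental libraries. It was lower in both Tyro3 OE (-1.01, SE 0.05, adjusted p = 4.85e-21) and resistant cells (-0.95, SE 0.05, adjusted p = 3.38e-20) than in parental cells, and higher in Tyro3 KO than in resistant cells (0.79, SE 0.05, adjusted p = 2.07e-17). Tyro3 OE and resistant libraries overlapped, with resistant minus Tyro3 OE at 0.061 (95% interval -0.052 to 0.18). The change in Tyro3 KO against parental was -0.17 (SE 0.05, adjusted p = 0.00906), which was lost without parental replicate 1 (adjusted p = 0.0901), without Tyro3 KO replicate 2 (adjusted p = 0.104) and with no filter (adjusted p = 0.0718).

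Compared per kilobase of gene length, the enzymes stood far apart. Odc1 had 188 ± 1.60 CPM per kb in Tyro3 OE cells, 678 ± 16.0 in Tyro3 KO cells, 100.2 ± 2.94 in resistant cells and 1077 ± 21.2 in parental cells (mean ± SD, n = 2). Sms, the lowest of the 9 genes on this scale in every group, had 9.19 ± 0.29, 16.5 ± 0.44, 9.60 ± 0.44 and 18.6 ± 0.47 CPM per kb in the same groups. Srm stood at 48.0 ± 0.48 CPM per kb in Tyro3 OE, 160.4 ± 0.83 in Tyro3 KO, 57.9 ± 0.32 in resistant and 145 ± 11.8 in parental cells. On this length, which equals the merged exons of each gene, Odc1 was the highest of the 9 per kb in each group. The longest protein-coding transcripts are shorter, with 2208 against 3405 bases for Odc1 and 1071 against 2558 bases for Oaz1. In resistant cells Odc1 and Oaz1 were close (100.2 and 87.6 CPM per kb), so their order there depends on the length used.

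**Figure D2:**
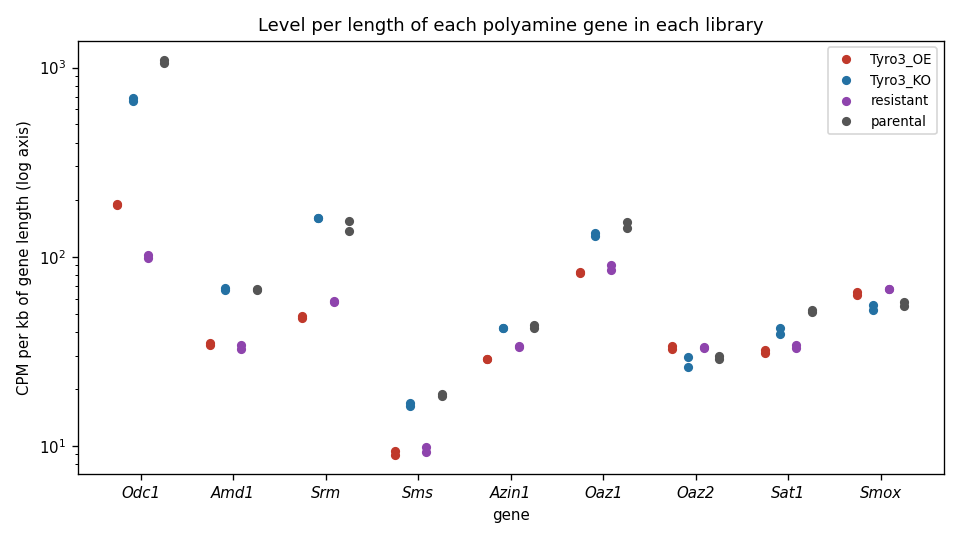
CPM per kb of deposited gene length (vertical log axis) of the 9 genes (horizontal axis) in each library (points, coloured by group). On this length Odc1 is highest and Sms lowest in every group, with Odc1 at 100.2 and Oaz1 at 87.6 CPM per kb in resistant cells.

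The regulators of the Odc1 protein moved less than Odc1. Oaz1 (ENSMUSG00000035242, chromosome 10, 80826656 to 80829290), the main antizyme, had 213 and 211 CPM in Tyro3 OE libraries, 329 and 341 CPM in Tyro3 KO libraries, 218 and 229.96 CPM in resistant libraries, and 389 and 361 CPM in parental libraries. The order of levels was parental, Tyro3 KO, resistant and Tyro3 OE. Oaz1 was lower in Tyro3 OE than in parental cells (-0.82, SE 0.04, adjusted p = 1.32e-21), lower in resistant than in parental cells (-0.74, SE 0.04, adjusted p = 3.11e-20) and higher in Tyro3 KO than in resistant cells (0.58, SE 0.04, adjusted p = 1.56e-16).

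At the ends of that order the Oaz1 groups were close. The change in Tyro3 KO against parental was -0.16 (SE 0.04, adjusted p = 0.00134), a call lost without parental replicate 1 (adjusted p = 0.0866), without Tyro3 KO replicate 1 (adjusted p = 0.0550) and with no filter (adjusted p = 0.0529). Resistant minus Tyro3 OE was 0.080 (95% interval -0.006 to 0.17, adjusted p = 0.11), which passed without resistant replicate 1 (adjusted p = 0.0336) and with upper-quartile scaling (adjusted p = 0.0343).

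Oaz2 (ENSMUSG00000040652, chromosome 9, 65668001 to 65690300), the second antizyme, moved against Oaz1. It had 101 and 96.9 CPM in Tyro3 OE libraries, 78.0 and 87.7 CPM in Tyro3 KO libraries, 98.1 and 99.8 CPM in resistant libraries, and 89.6 and 86.4 CPM in parental libraries. Tyro3 OE and resistant libraries overlapped, as did Tyro3 KO and parental libraries, and every library of Tyro3 OE and resistant cells was above every one of Tyro3 KO and parental cells.

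Oaz2 fell in Tyro3 KO against resistant cells by 0.26 (SE 0.05, adjusted p = 2.45e-05), or by 0.17 without Tyro3 KO replicate 1 (adjusted p = 0.0227), and had small rises in Tyro3 OE (0.17, SE 0.05, adjusted p = 0.00413) and resistant cells (0.17, SE 0.05, adjusted p = 0.00436) against parental cells. Both rises were lost without parental replicate 2 (adjusted p = 0.0672 and 0.0705) and with no filter (adjusted p = 0.0602 and 0.113), and the first also without Tyro3 OE replicate 1 (adjusted p = 0.0717). The authors' deposited table gave adjusted p = 0.0681 and 0.105 for them.

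Azin1 (ENSMUSG00000037458, chromosome 15, 38487427 to 38519266), a homologue of Odc1 with no enzyme activity, had 179.7 and 181 CPM in Tyro3 OE libraries, 261.3 and 261.4 CPM in Tyro3 KO libraries, 212 and 208 CPM in resistant libraries, and 273 and 263 CPM in parental libraries. The Tyro3 OE and resistant libraries were low, with Tyro3 OE the lower, and parental and Tyro3 KO libraries were high. Azin1 changed by -0.57 in Tyro3 OE against parental (SE 0.04, adjusted p = 1.02e-16), 0.32 in Tyro3 KO against resistant (SE 0.04, adjusted p = 1.82e-09) and -0.35 in resistant against parental (SE 0.04, adjusted p = 1.58e-10). Resistant was above Tyro3 OE by 0.22 (SE 0.04, adjusted p = 1.10e-05), and Tyro3 KO minus parental was -0.035 (95% interval -0.12 to 0.045). Azin1 overlaps Gm49077 on the opposite strand, and whether the counting used strand is not given in the sources used here. No 50-base window of Azin1 or of Smox occurred in another gene. For Oaz1, 52.2% of windows also occurred in the pseudogene Oaz1-ps, and for Sms 28.7% occurred elsewhere, but such genes held at most 1.04% of the reads of Oaz1, Oaz2, Srm, Sms or Sat1.

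The breakdown enzymes moved in opposite directions. Sat1 (ENSMUSG00000025283, chromosome X, 155213132 to 155216449) had 88.8 and 85.4 CPM in Tyro3 OE libraries, 108.3 and 116 CPM in Tyro3 KO libraries, 91.3 and 94.1 CPM in resistant libraries, and 142 and 144 CPM in parental libraries. No groups overlapped, and parental cells stood apart at the top. Sat1 was lower in Tyro3 OE than in parental cells (-0.72, SE 0.05, adjusted p = 1.46e-17), lower in resistant than in parental cells (-0.63, SE 0.05, adjusted p = 1.04e-15), and higher in Tyro3 KO than in resistant cells by 0.27 (SE 0.05, adjusted p = 3.21e-06).

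Of the 9 genes, Sat1 and Odc1 were those that stood furthest from parental cells in Tyro3 KO cells, Sat1 at -0.36 (SE 0.05, adjusted p = 3.92e-08). Resistant minus Tyro3 OE was 0.091 for Sat1 (95% interval -0.008 to 0.19, adjusted p = 0.115, and 0.0443 with upper-quartile scaling).

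Smox (ENSMUSG00000027333, chromosome 2, 131491496 to 131525922), spermine oxidase, had 252 and 245 CPM in Tyro3 OE libraries, 204 and 216 CPM in Tyro3 KO libraries, 261.9 and 262.4 CPM in resistant libraries, and 225 and 213 CPM in parental libraries. Tyro3 OE and resistant libraries were all above Tyro3 KO and parental libraries, which overlapped. Smox rose by 0.18 in Tyro3 OE against parental (SE 0.04, adjusted p = 0.000155) and by 0.26 in resistant against parental cells (SE 0.04, adjusted p = 4.39e-07), and fell by 0.32 in Tyro3 KO against resistant cells (SE 0.04, adjusted p = 3.84e-09). Tyro3 KO minus parental was -0.059 (95% interval -0.14 to 0.027), and resistant minus Tyro3 OE was 0.077 (95% interval -0.006 to 0.16, adjusted p = 0.111, and 0.0282 with upper-quartile scaling).

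**Figure D3:**
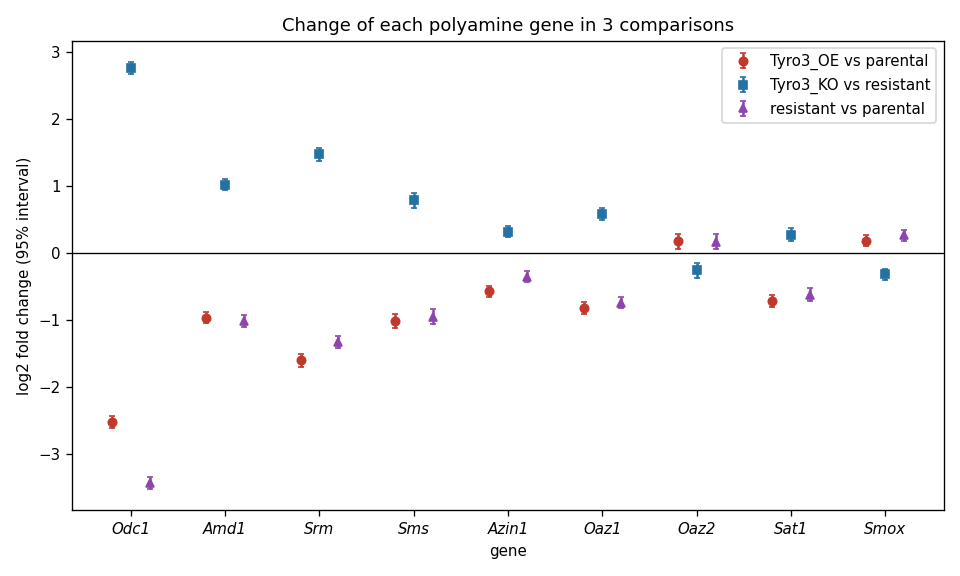
Log2 fold change of each gene (points) with its 95% interval (bars) in the 3 comparisons. Odc1 has the largest changes of the 9 genes (-2.52, 2.76 and -3.43), and Oaz2 and Smox are the genes on the opposite side of 0 from the rest.

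In counts, 7 of the 9 genes were called lower and 2 higher in Tyro3 OE against parental cells, at an adjusted p under 0.05. Of all genes tested, 66.2% were called there, 33.7% lower and 32.5% higher. In Tyro3 KO against resistant cells 7 were higher and 2 lower, against 72.7% of all genes (37.1% of all genes higher, 35.6% lower). In resistant against parental cells 7 were lower and 2 higher, against 71.2% of all genes (36.1% of all genes lower, 35.1% higher). All 9 genes had groups without overlap in these comparisons, as had 82.5%, 85.0% and 84.2% of all genes.

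The median log2 fold change of the 9 genes was -0.82, 0.58 and -0.74 in the same order of comparisons, against 0.028, -0.022 and 0.028 over all genes tested. A change of at least 1 on the log2 scale was called for 3 of the 9 genes in each. These were Odc1 and Srm in all of them, with Sms in the first and Amd1 in both others. The shares of all genes were 18.7%, 27.1% and 27.4%.

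With upper-quartile scaling the median of all genes moved to 0.17, -0.17 and 0.19, and each of the 9 genes kept its direction and its call in these comparisons. Of the calls over all genes in Tyro3 OE against parental cells, 60.3% were then higher, against 49.1% with TMM scaling. Several smaller changes moved by over 1.5 times. Smox had 0.33 in Tyro3 OE and 0.42 in resistant against parental cells, and Oaz2 had 0.31, -0.41 and 0.33 in the 3 comparisons. Azin1 had 0.17 in Tyro3 KO against resistant and -0.19 in resistant against parental cells, and Sat1 had 0.12 in Tyro3 KO against resistant cells. Relative to the shifted median Smox stood at 0.16, -0.30 and 0.23, Oaz2 at 0.14, -0.24 and 0.14, Azin1 at -0.60, 0.34 and -0.38, and Sat1 at -0.74, 0.29 and -0.65.

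Between Tyro3 KO and parental cells 5 of 9 genes were called, 4 lower (Odc1, Sat1, Sms and Oaz1) and 1 higher (Srm). Of all genes 36.3% were called there, 18.3% lower and 18.1% higher. The calls of Odc1 and Sat1 held under every other scaling, filter, tool and left-out library, while none of the 9 changes reached 1, as 4.33% of all genes did. The groups did not overlap for 6 of the 9, against 64.4% of all genes. In resistant against Tyro3 OE cells 3 were called, Odc1 lower and Srm and Azin1 higher, against 55.3% of all genes (28.3% of all genes lower, 27.0% higher). There 6 of the 9 had groups without overlap, against 76.4% of all genes, and none changed by 1 or more, as 11.0% of all genes did. In Tyro3 OE against Tyro3 KO cells all 9 were called and without overlap, 7 lower and 2 higher. Of all genes 67.0% were called there, 34.3% lower and 32.8% higher, and 83.1% were without overlap.

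Ratios of reads within a library need no scaling between libraries and show how the genes moved against each other. There were 7.17 and 7.56 Odc1 reads for each Sat1 read in Tyro3 OE libraries, 20.98 and 20.3 in Tyro3 KO libraries, 3.81 and 3.55 in resistant libraries, and 26.2 and 25.1 in parental libraries. The groups did not overlap and kept the order of Odc1. The log2 ratio was lower by 1.80 in Tyro3 OE than in parental cells, higher by 2.49 in Tyro3 KO than in resistant cells, and lower by 2.80 in resistant than in parental cells.

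The ratio of Odc1 to its antizyme Oaz1 was 2.99 and 3.06 in Tyro3 OE libraries, 6.91 and 6.89 in Tyro3 KO libraries, 1.60 and 1.45 in resistant libraries, and 9.56 and 10.0 in parental libraries. Azin1 reads per Oaz1 read went the other way, at 0.842 and 0.86 in Tyro3 OE, 0.795 and 0.768 in Tyro3 KO, 0.97 and 0.904 in resistant, and 0.70 and 0.729 in parental libraries. For the breakdown enzymes, Sat1 reads per Smox read were 0.352 and 0.349 in Tyro3 OE libraries, 0.53 and 0.536 in Tyro3 KO libraries, 0.349 and 0.359 in resistant libraries, and 0.631 and 0.679 in parental libraries. Tyro3 OE and resistant libraries overlapped in Sat1 to Smox. Parental and Tyro3 KO libraries were higher and did not overlap with each other.

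For the synthases of spermidine and spermine, Srm reads per Sms read were 1.35 and 1.43 in Tyro3 OE libraries, 2.53 and 2.64 in Tyro3 KO libraries, 1.66 and 1.55 in resistant libraries, and 2.16 and 1.999 in parental libraries. Here Tyro3 KO, not parental, was the highest group. With 2 libraries against 2 an exact two-sided permutation test cannot go below p = 0.333, so these ratios are given as descriptions.

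**Figure D4:**
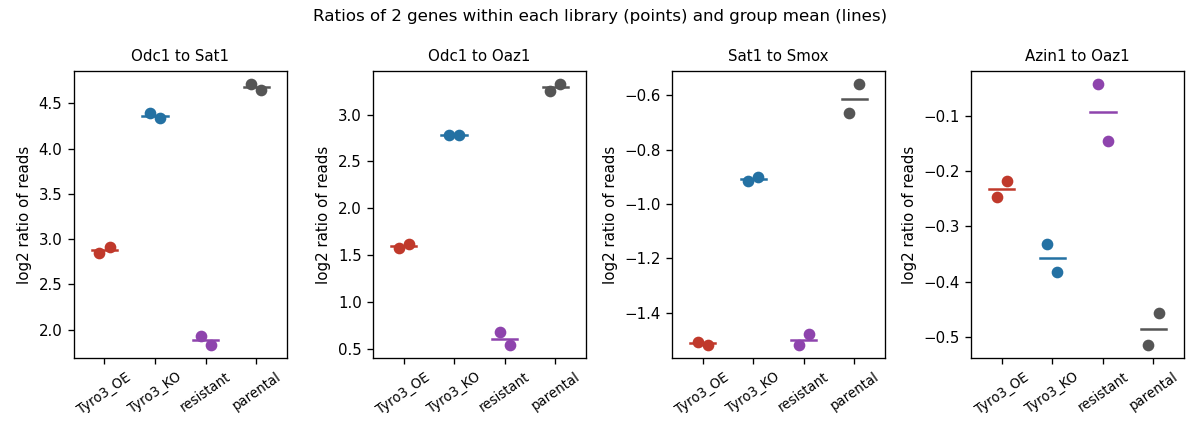
Log2 ratio of reads of 2 genes within each library (points, vertical axes) by group, with the group mean as a line. Odc1 to Sat1 and Odc1 to Oaz1 are lowest in resistant and highest in parental libraries, while Azin1 to Oaz1 has the reverse order.

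The group with more Tyro3 minus the group with less was compared between the backgrounds. This set Tyro3 OE minus parental against resistant minus Tyro3 KO, 2 differences that share no library. Whether Tyro3 or another trait of the lines made these differences was not tested. Sat1 had -0.72 in parental and -0.27 in resistant background, a difference of -0.45 (SE 0.07, adjusted p = 4.16e-07). Odc1 had -2.52 in parental and -2.76 in resistant background, so its fall was larger in the resistant background, with a difference of 0.24 (SE 0.06, adjusted p = 0.000644). Like Sat1, Azin1 (-0.25, SE 0.06, adjusted p = 0.000238), Oaz1 (-0.24, SE 0.06, adjusted p = 0.000642) and Sms (-0.23, SE 0.08, adjusted p = 0.0124) had the larger fall in the parental background. The parental contrast is an overexpression and the resistant contrast a knockout, and the change of Tyro3 itself differed between them (2.07 in Tyro3 OE against parental, -2.43 in Tyro3 KO against resistant, difference -0.36, SE 0.14, adjusted p = 0.0346), so the background and the kind or range of the Tyro3 change cannot be told apart. Of the 9 genes 5 were called, 4 below 0 and 1 above. Of all genes 46.7% were called, 22.0% below and 24.7% above, and 11.4% with a difference of at least 1, which none of the 9 reached. Amd1 (0.055, 95% interval -0.066 to 0.18), Oaz2, Srm and Smox were not called. Smox (-0.14, adjusted p = 0.0559) passed with upper-quartile scaling (adjusted p = 0.0289), with at least 50 reads in 2 libraries (adjusted p = 0.0239), without parental replicate 2 (adjusted p = 0.0282) and without Tyro3 KO replicate 2 (adjusted p = 0.0481). Srm (-0.13, adjusted p = 0.117) passed without parental replicate 2 (-0.21, adjusted p = 0.013).

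Genes that feed, use or move polyamines, genes around Sat1 and ferroptosis, and the Myc family were counted in 7 lists. In all 7, higher and lower count the genes called at an adjusted p under 0.05. Of all genes tested, 32.5% were called higher and 33.7% lower in Tyro3 OE against parental cells. The shares were 37.1% and 35.6% in Tyro3 KO against resistant cells, and 35.1% and 36.1% in resistant against parental cells. A comparison not printed for a gene need not be one without a change. Of 7 other polyamine enzymes and regulators 4 were tested, 3 of them higher and 1 lower in Tyro3 OE against parental cells and in resistant against parental cells, and 1 higher and 3 lower in Tyro3 KO against resistant cells. Azin2, a further antizyme inhibitor, had 14.7 and 16.9 CPM in Tyro3 OE libraries, 2.76 and 2.42 CPM in Tyro3 KO libraries, 11.2 and 14.0 CPM in resistant libraries, and 2.43 and 2.98 CPM in parental libraries. It changed by 2.54 (SE 0.17, adjusted p = 5.65e-18), -2.27 (SE 0.16, adjusted p = 1.20e-16) and 2.21 (SE 0.17, adjusted p = 1.27e-15) in Tyro3 OE against parental, Tyro3 KO against resistant and resistant against parental cells. The direction of Azin2 was opposite to that of Azin1 in each of these comparisons.

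Paox, which oxidises acetylated polyamines after Sat1 has acted, had 16.99 and 15.3 CPM in Tyro3 OE libraries, 9.71 and 11.2 CPM in Tyro3 KO libraries, 22.1 and 22.5 CPM in resistant libraries, and 8.08 and 8.42 CPM in parental libraries. It rose by 0.97 in Tyro3 OE and by 1.43 in resistant against parental cells, and fell by 1.1 in Tyro3 KO against resistant cells (SE 0.11 to 0.12, adjusted p at most 1.18e-09). Amd2 went with Amd1, at -1.01, 0.83 and -0.92 in Tyro3 OE against parental, Tyro3 KO against resistant and resistant against parental cells (SE 0.14 to 0.15). Reads of Amd1 and Amd2 cannot be told apart where their sequences are identical.

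Of 10 polyamine transport genes 7 were tested. Tyro3 OE against parental cells had 4 higher and 2 lower, in Tyro3 KO against resistant cells 1 was higher and 4 lower, and in resistant against parental cells 4 were higher and 1 lower. Slc3a2, a transporter subunit tied to putrescine efflux, had 0.84, -1.40 and 1.40 (SE 0.04 each) and Atp13a2, a lysosomal polyamine exporter, 0.68, -0.36 and 0.33 (SE 0.09 each) in those comparisons. Atp13a3, a related pump for polyamine uptake, fell by 0.49 in Tyro3 OE against parental cells (SE 0.04, adjusted p = 2.96e-14). Atp13a4, of the same family, had 10.7 and 11.02 CPM in Tyro3 OE libraries, 15.3 and 14.9 CPM in Tyro3 KO libraries, 1.15 and 0.902 CPM in resistant libraries, and 13.5 and 13.7 CPM in parental libraries. Resistant libraries alone were low, with 3.88 in Tyro3 KO against resistant (SE 0.18, adjusted p = 1.04e-23) and -3.72 in resistant against parental cells (SE 0.18, adjusted p = 1.89e-22).

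Spermidine is used to make hypusine on Eif5a, a translation factor, by Dhps and then Dohh. Of these 4 genes with Eif5a2, 3 were lower in Tyro3 OE against parental cells, 2 were higher and 1 lower in Tyro3 KO against resistant cells, and 2 were lower in resistant against parental cells. Eif5a had 660.3 and 635 CPM in Tyro3 OE libraries, 1678 and 1666 CPM in Tyro3 KO libraries, 836 and 829.7 CPM in resistant libraries, and 1697 and 1663 CPM in parental libraries. It fell by 1.38 in Tyro3 OE cells and by 1.01 in resistant cells against parental cells and rose by 1.005 in Tyro3 KO against resistant cells (SE 0.04 each, adjusted p at most 1.23e-25). Dhps had -1.11, 0.80 and -1.10 (SE 0.09 each) in Tyro3 OE against parental, Tyro3 KO against resistant and resistant against parental cells, and Eif5a2 had -0.33 (SE 0.14, adjusted p = 0.0336) in Tyro3 KO against resistant cells.

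The methionine cycle and salvage genes, which supply S-adenosylmethionine and recover the sulfur by-product of Srm and Sms, had 9 of 9 tested. In Tyro3 OE against parental cells 7 were lower and 1 higher (median -0.57), in Tyro3 KO against resistant cells 5 were higher and 1 lower (median 0.55), and in resistant against parental cells 6 were lower (median -0.29). Ahcy, which clears S-adenosylhomocysteine, changed by -1.32, 1.20 and -1.505 (SE 0.04 each) and Enoph1, of the salvage pathway, by -1.26, 1.19 and -1.39 (SE 0.07 each) in those comparisons. Mat2a, which makes S-adenosylmethionine, fell by 0.91 in Tyro3 OE against parental cells (SE 0.04), where its regulatory subunit Mat2b had 0.17 (SE 0.06, adjusted p = 0.0156). Mat2a had 0.59 in Tyro3 KO against resistant and -0.64 in resistant against parental cells (SE 0.04 each). Ahcyl1 had -0.25 in Tyro3 KO against resistant cells (SE 0.04).

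The arginine and ornithine genes, 7 of 10 tested, did not share a direction. In Tyro3 OE against parental cells 2 were higher and 3 lower, in Tyro3 KO against resistant cells 5 were higher and 2 lower, and in resistant against parental cells 2 were higher and 5 lower. Arg2, an arginase that makes ornithine, had 1.28 in Tyro3 KO against resistant cells (SE 0.13) and -1.66 in resistant against parental cells (SE 0.13). Oat, which links ornithine to glutamate, had -0.40, 0.84 and -0.56 (SE 0.05 to 0.06) in the 3 comparisons. Aldh18a1, of proline and ornithine synthesis, moved the other way (0.88, -1.61 and 1.20, SE 0.05 each), as did the arginine importer Slc7a1 (0.11, -0.99 and 0.20, SE 0.04 each). Ass1 fell by 0.96 in Tyro3 OE (SE 0.12) and by 0.60 in resistant against parental cells (SE 0.12). It rose by 0.80 in Tyro3 KO against resistant cells (SE 0.11).

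**Figure D5:**
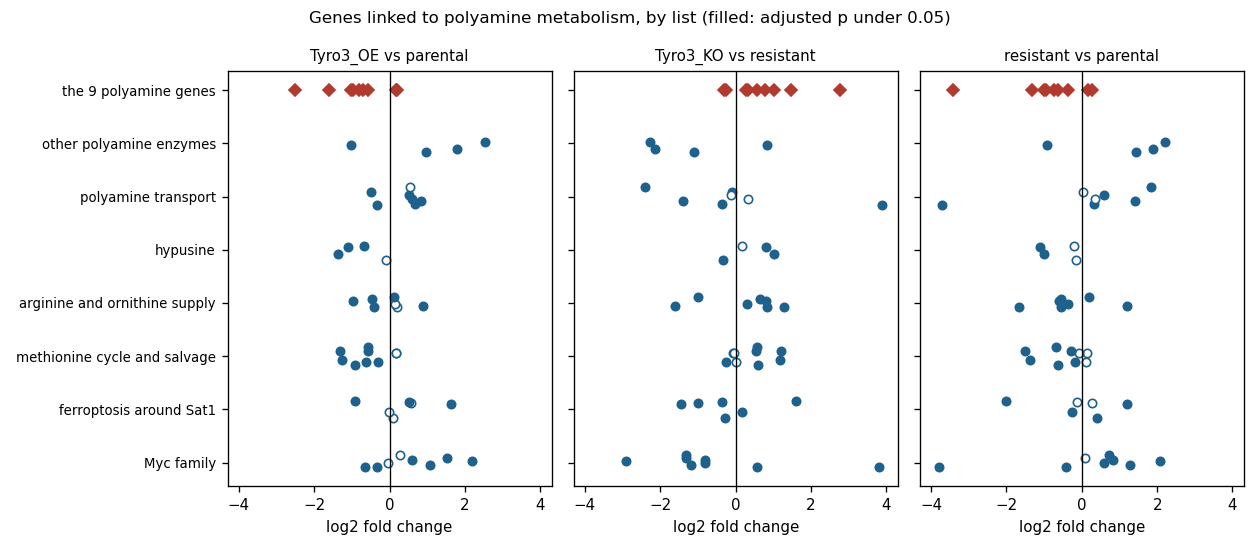
Log2 fold changes (horizontal axes) of the 9 polyamine genes (diamonds) and of the tested genes of 7 linked lists (circles, filled at an adjusted p under 0.05, vertical position within a list arbitrary) in the 3 comparisons. Eif5a, Dhps and most methionine genes lie on the side of Odc1, and Azin2, Paox and Slc3a2 on the side of Smox.

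Around Sat1 and ferroptosis, 6 of 10 genes were tested. Tyro3 OE against parental cells had 2 higher and 1 lower, in Tyro3 KO against resistant cells 2 were higher and 4 lower, and in resistant against parental cells 2 were higher and 2 lower. Alox15, the lipoxygenase linked to SAT1 in human cells, had 3 reads in 1 Tyro3 OE library, 2 reads in 1 parental library and none in the other 6, so it could not be tested at this depth. Trp53 RNA moved against Sat1, with 1.62 in Tyro3 OE against parental, -1.46 in Tyro3 KO against resistant and 1.19 in resistant against parental cells (SE 0.05 each, adjusted p at most 2.54e-24). Whether these cells make a working p53 protein was not measured, and a link of Trp53 to Sat1 was not tested.

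Pmf1, which in human cells takes part in induction of SAT1 by polyamine analogues, had 66.6 and 63.0 CPM in Tyro3 OE libraries, 94.1 and 91.4 CPM in Tyro3 KO libraries, 29.99 and 30.9 CPM in resistant libraries, and 126 and 121 CPM in parental libraries. It fell by 0.93 in Tyro3 OE and by 2.02 in resistant against parental cells and rose by 1.61 in Tyro3 KO against resistant cells (SE 0.05 to 0.06, adjusted p at most 4.90e-20). The p53 targets Cdkn1a and Mdm2 changed less. Cdkn1a had 0.53 (SE 0.10) in Tyro3 OE against parental and -0.35 (SE 0.11) in Tyro3 KO against resistant cells. Mdm2 had 0.16 in Tyro3 KO against resistant and -0.26 in resistant against parental cells (SE 0.05 each). Cdkn1a in resistant against parental (-0.11) and Mdm2 in Tyro3 OE against parental cells (-0.015) were not called. Nfe2l2, the antioxidant factor NRF2, had -0.28 in Tyro3 KO against resistant and 0.40 in resistant against parental cells (SE 0.04 each).

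Odc1 is a classic target of Myc, and 8 of 9 genes of the Myc family list were tested. In Tyro3 OE against parental cells 4 were higher and 2 lower, in Tyro3 KO against resistant cells 2 were higher and 6 lower, and in resistant against parental cells 5 were higher and 2 lower. Myc had 207 and 208 CPM in Tyro3 OE libraries, 194 and 176 CPM in Tyro3 KO libraries, 329 and 318 CPM in resistant libraries, and 212 and 215 CPM in parental libraries. Its RNA was highest in resistant libraries, the group with the least Odc1. It was not called in Tyro3 OE against parental cells (-0.04, SE 0.04, adjusted p = 0.403), and had -0.80 in Tyro3 KO against resistant (SE 0.04, adjusted p = 2.45e-21) and 0.60 in resistant against parental cells (SE 0.04, adjusted p = 8.92e-17). Myc protein was not measured, and the part of Myc in the Odc1 levels was not tested.

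Max, the partner of Myc, had -0.33, 0.57 and -0.43 (SE 0.05 each) in Tyro3 OE against parental, Tyro3 KO against resistant and resistant against parental cells. The Mxd and Mxi proteins compete with Myc for Max. In the same comparisons Mxd4 had 2.19, -2.91 and 2.09 (SE 0.10 to 0.11). Mxi1 had 1.07, -1.18 and 1.29 (SE 0.08 to 0.09), and Mxd3 had -0.65, 3.81 and -3.79 (SE 0.10 to 0.15).

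Over the 8 libraries, the protein-coding genes outside these lists whose log2 CPM was most like that of Odc1 were Nhp2 (Pearson r = 0.9995), Map2k3 (r = 0.999) and Fam129b (r = 0.9989), among 9956 genes ranked. For Sat1 they were Pdcd11 (r = 0.9964), Fkbp1a (r = 0.9949) and Spry4 (r = 0.9917), and for Smox they were Dcaf17 (r = 0.997), Gna12 (r = 0.9916) and Prss36 (r = 0.9908). The libraries form 4 groups of 2, so such values are common. An r of at least 0.9 was reached by 1999 genes for Odc1, 647 for Sat1 and 1073 for Smox.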

How the data were processed

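RNA-seq of 8 libraries was analysed from 3 tables the authors deposited, 1 per comparison. Each table held raw read counts and gene lengths, and the authors' log2 fold change and adjusted p-value for their comparison, per the file headers. The submitters' processing notes list CASAVA, STAR and DESeq2, with no version and no role, and the builds GRCm38 and mm10. Which program made the counts, and whether it used strand, is not given in the sources used here. Counts were equal wherever 2 tables held a library, and 24 other per-sample columns were not used.

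The counts were joined into 24677 genes, with 0 for a gene not listed. All 8 libraries were fitted with 1 mean per group in R 4.3.3 with edgeR 4.0.16, using TMM scaling, filterByExpr, glmQLFit and glmQLFTest. The threshold was an adjusted p of 0.05. CPM uses TMM-scaled library sizes. The common dispersion gave a coefficient of variation of 3.51%. The fits were repeated with upper-quartile or RLE scaling, with DESeq2 1.42.0, with other filters, on the libraries compared alone, with a replicate block, and without each library in turn. The 9 genes and the lists were chosen with earlier results of these data known. Every gene of the 9 is named, and for each linked list up to 2 called genes per direction and comparison with the smallest adjusted p, with Myc, Eif5a and Alox15. Gm7993 was named after its values were seen.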

Additional observations from a re-analysis of the deposited data

Results flagged for a closer look

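For 5 of the 9 genes, the group with more Tyro3 minus the group with less differed between the backgrounds. These were Tyro3 OE minus parental in the parental background and resistant minus Tyro3 KO in the resistant background. The difference between the backgrounds was itself tested in edgeR's quasi-likelihood fit. Of all genes tested, 46.7% were called there. On the log2 scale the difference was -0.45 for Sat1, -0.25 for Azin1, -0.24 for Oaz1, 0.24 for Odc1 and -0.23 for Sms. With no filter on low counts the calls of Oaz1 (adjusted p = 0.0535) and Sms (adjusted p = 0.112) were lost. That of Sms was also lost without Tyro3 OE replicate 2, parental replicate 1, Tyro3 KO replicate 2 or resistant replicate 2 (adjusted p = 0.0538 to 0.0806). Calls were gained for Smox, under alternatives of scaling, filter and left-out library, and for Srm without parental replicate 2. The backgrounds also differ in the kind of Tyro3 change, an overexpression and a knockout, and these cannot be told apart.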

How the results depend on the processing

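In the comparisons of Tyro3 OE with parental, Tyro3 KO with resistant and resistant with parental cells, all 9 genes kept their direction under every alternative run, and all but Oaz2 kept their call, apart from the rule on the size of the change. Requiring a change of at least 1 left 3 called genes in each of these comparisons, 2 in Tyro3 OE against Tyro3 KO, and 0 in Tyro3 KO against parental, in resistant against Tyro3 OE and between backgrounds. With no filter, 2 genes were called in Tyro3 KO against parental cells and 3 between backgrounds, where 4002 and 5527 of 24677 genes were called, against 5274 and 6776 of 14513 with the filter. Leaving out 1 library gave 3 to 5 called genes in Tyro3 KO against parental cells. With upper-quartile scaling 6 genes were called in resistant against Tyro3 OE cells, and 60.3% of all calls in Tyro3 OE against parental cells were higher, against 49.1%. The causes were not tested. Signs turned only for uncalled values near 0. Leaving out 1 library gave Amd1 -0.00659 to 0.021 in Tyro3 KO against parental cells (below 0 without Tyro3 KO replicate 2), Oaz2 -0.032 to 0.023 in resistant against Tyro3 OE cells (above 0 without Tyro3 OE replicate 1 or resistant replicate 1, 0.00709), and Oaz2 -0.167 to 0.000877 between backgrounds (above 0 without Tyro3 KO replicate 1). Oaz2 in resistant against Tyro3 OE cells was also above 0 with upper-quartile scaling (0.019) and with at least 50 reads in 2 libraries (0.00569). Over all genes tested, replicates of the same number deviated together little (correlations -0.002 to 0.033). A value over all genes cannot exclude a shared effect on some of them. With the replicate block 9, 9 and 9 of the genes were called in the first 3 comparisons, as without it. Merged exon lengths of GENCODE release 21 equalled the deposited ones for the 9 genes, so they gave no second check of the levels per kb. Levels per kb of single transcripts were not computed. The lost calls were of changes between 0.14 and 0.24 in size.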
